A study of Mus musculus with 4 samples.

Results

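The regions described here are 220 stretches of open chromatin in 7438 cells at which the effect of dexamethasone (Dex) in the presence of estradiol (E2) was at least 2-fold above its effect in the absence of E2. They were selected from their measured DNase-seq densities. The lists of hypersensitive regions of the 4 libraries were merged, overlapping or touching regions were joined, and the 20687 merged regions found in all 4 lists were kept out of 103288. At each, the highest maximum tag density per library was divided by that library's median over the 20687 regions, and is called the scaled density. The interaction ratio is the scaled Dex+E2 density over E2, divided by Dex over untreated, and the 220 regions are those with a ratio of at least 2. They make up 1.06% of the shared regions. Since these densities chose the regions, the densities and the ratios made from them are given as a description, with no test.

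DNase-seq locates DNA that the nuclease DNase I cuts easily. 7438 cells are a mouse mammary line that makes GFP-tagged glucocorticoid receptor (GFP-GR) and Cherry-tagged estrogen receptor (Ch-ER) from a tet-regulated promoter. All 4 conditions share this background: tetracycline was removed 24 h before hormone in charcoal-dextran serum. Both tagged receptors are therefore expected in every library, the untreated one included, but their levels were not analysed here. Cells received 100 nM Dex plus 100 nM E2, 100 nM Dex, or 100 nM E2, each for 30 min, or no hormone. Each condition had 1 library, so no difference could be set against a spread between replicates, and what a hormone did cannot be told apart from how its library differs. Positions are those of the deposited lists, in build mm9, and whether they count from 0 or 1 is not stated. Nearby genes, DNA sequence and marker genes of the cell type were not analysed here.

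The glucocorticoid receptor (GR, bound by Dex) and the estrogen receptor (ER, bound by E2) are ligand-activated transcription factors that bind DNA elements in or near open chromatin and recruit remodelling complexes. Binding of a receptor can widen or narrow the access of another one to the same site. When both are activated, a site may therefore respond otherwise than the separate hormones would predict, and the ratio used here is a measure of that on a multiplicative scale.

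At most of the selected regions the density did not build up with hormone. In 201 of the 220 (91.4%) both single-hormone libraries lay below the untreated one on the scaled densities, against 32.5% of all shared regions. Both lay above it in 2 regions, against 31.6% of all shared regions. The ratio that chose the regions contains both single-hormone densities, so these shares describe what it selected. The scaled Dex+E2 density had a median of 1.04 times untreated over the 220 (quartiles 0.87 and 1.23), much as over all shared regions, where the median was 1.01 (0.82 and 1.26), and 184 of the 220 lay within 1.5-fold (83.6%, against 75.4% of all shared regions). On the scaled densities the typical selected region was lower after Dex alone and after E2 alone and about as dense after both as without hormone. As deposited, Dex+E2 was below untreated too, with a median log2 of -0.90 over the 220 and -0.95 over all shared regions. On the linear scale, Dex+E2 plus untreated exceeded Dex plus E2 in 220 of the 220 scaled (48.2% of all shared regions). As deposited, this sum was the larger in 220 of the 220 too (97.1% of all shared regions). It was also the larger, as deposited, in 64.2% of the shared regions with a ratio of at most 0.5. The ratio that chose the regions is made of the same densities and favours this order, so nothing is read from either count of 220. A rise of at least 2-fold above untreated was rare: Dex+E2 reached it on the scaled densities in 6 of the 220, against 7.19% of all shared regions. A rise of any size was seen in 124 (56.4%), against 50.8% of all shared regions. A description of these regions as sites that the hormones open goes against the scaled single-hormone densities in 201 of the 220.

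The median scaled density of the 220 regions was 1.15 after Dex+E2, 0.73 after Dex, 0.80 after E2 and 1.15 in untreated cells, where 1 is the library median over all shared regions. The quartiles ran from 0.90 to 1.65 after Dex+E2, 0.52 to 1.08 after Dex, 0.61 to 1.14 after E2 and 0.87 to 1.61 in untreated cells. In these units the single-hormone libraries were the low ones. Dex over untreated had a median log2 of -0.58 and E2 over untreated -0.48. Dex+E2 over Dex had a median log2 of 0.67, and Dex+E2 over E2 0.56. Dex was within 1.5-fold of E2 in 164 regions (74.5%), near the 76.8% of all shared regions.

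**Figure D1:**
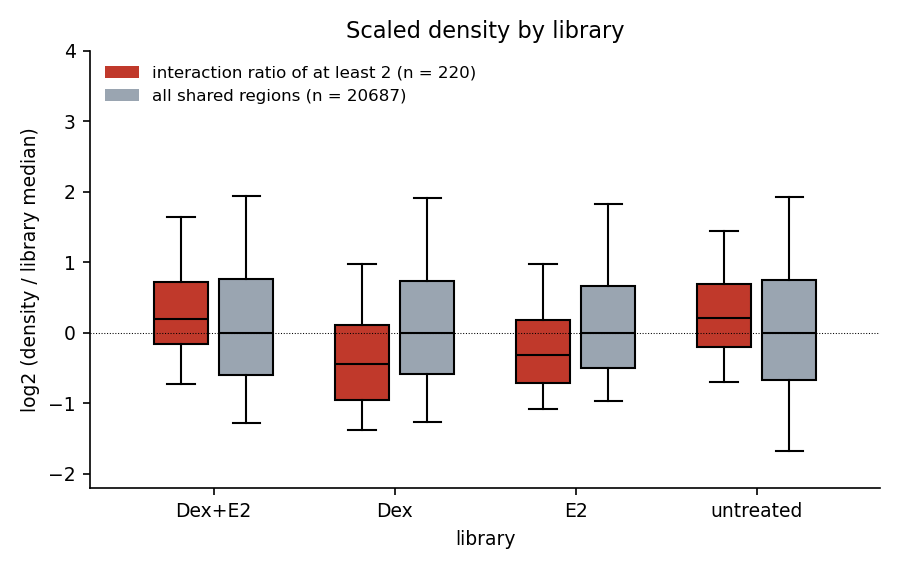
Scaled density (log2 of density over library median, y axis) in each library for the 220 selected and all 20687 shared regions. Boxes span the quartiles, the line is the median and whiskers reach the 5th and 95th percentiles. The selected regions sit low in the Dex and E2 libraries, with medians of 0.73 and 0.80 before the logarithm, and slightly high in the other 2, with medians of 1.15.

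Single-hormone densities were lower by moderate amounts. Dex was below untreated in 212 regions and E2 in 207, while 50.9% and 49.9% of all shared regions were below by these comparisons. A drop of at least 2-fold was seen in 28 regions for Dex (background 0.595% of all shared regions) and in 14 for E2 (background 0.445%). Both drops together reached 2-fold in 2 regions (background 0.0338%), chr9:32399136-32400468 and chr5:93558736-93559584. In the other direction, Dex+E2 was at least 2-fold above Dex in 37 regions (1.84% of all shared regions) and at least 2-fold above E2 in 14 (1.78%). A ratio of at least 2 forces shifts of this kind, so nothing is read from these shares.

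**Figure D2:**
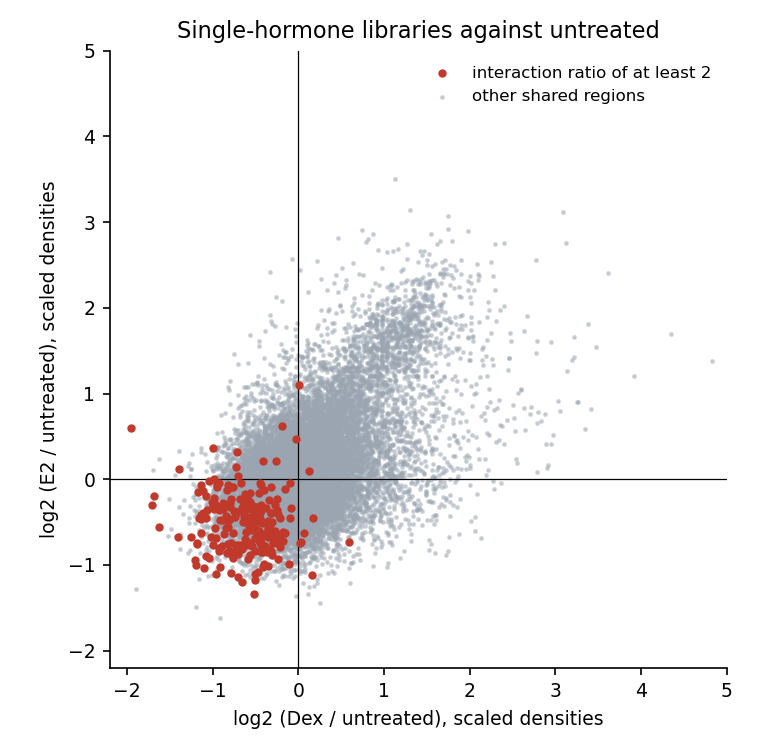
Each point is a shared region, with log2 of scaled Dex over untreated on the x axis and log2 of scaled E2 over untreated on the y axis. Of the 220 selected regions (red), 201 lie at the lower left, where both single hormones are below untreated, and 2 lie in the upper right.

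The lowest scaled density was that of the Dex library in 128 regions, of the E2 library in 90 and of the untreated library in 2, against 25.4%, 24% and 26.6% of all shared regions. It was the Dex+E2 library in 0 of the 220, against 24% of all shared regions. The highest was Dex+E2 in 122 (background 21.6%), untreated in 95 (26.1%), E2 in 2 (28.4%) and Dex in 1 (23.8%). In 198 regions (90.0%, against 21.7% of all shared regions) Dex was below untreated while Dex+E2 was above E2. Within the 201 regions with both single hormones below untreated, Dex+E2 was highest in 106 and untreated in 95. The 122 regions with Dex+E2 highest had median scaled densities of 1.46 after Dex+E2, 0.74 after Dex, 0.84 after E2 and 1.11 in untreated cells. The 95 with untreated highest had 0.94 after Dex+E2, 0.72 after Dex, 0.75 after E2 and 1.19 in untreated cells, so these groups differ mainly in the Dex+E2 density that sorts them. Which of Dex+E2 and untreated is higher is not set by the ratio, and Dex+E2 was above untreated in 124 of the 220 (56.4%), against 50.8% of all shared regions.

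On the deposited scale, without division by the medians, the picture shifts toward the untreated library, which was denser than the others almost everywhere. The median density of the 220 was 17.7 after Dex+E2, 10.8 after Dex, 8.20 after E2 and 34.7 in untreated cells. The untreated density was the highest of the 4 in 213 regions, against 90.1% of all shared regions, and Dex+E2 in the other 7 (5.22%). Division by the medians changes every ratio by the same factor: a scaled ratio of 2 equals a deposited ratio of 6.20, and the median deposited ratio over all shared regions was 3.05. A limit of 2 on deposited densities would take 17396 regions. Whether the general excess of the untreated library came from the cells or from the library cannot be told apart.

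The leading region by interaction ratio was chr10:114688193-114688969. Its density was 25.4 (exact Poisson 95% interval 20.9 to 30.6) after Dex+E2, 7.10 (4.76 to 10.2) after Dex, 8.40 (6.05 to 11.4) after E2 and 28.8 (23.8 to 34.7) in untreated cells. As deposited, the intervals of the 2 single-hormone libraries did not reach those of the other 2, but the untreated library was denser almost everywhere. On the scaled densities Dex was 0.50, E2 0.86 and Dex+E2 1.72 of untreated. The ratio at this region was 3.96, with an interval of 2.31 to 6.80 from counting error on the 4 summit tag counts.

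At chr9:32399136-32400468 the density was 17.5 after Dex+E2, 9.06 after Dex, 7.20 after E2 and 42.6 in untreated cells, a ratio of 3.68 (2.16 to 6.27). Here the scaled Dex+E2 density stayed below the untreated one, at 0.80 of it. The region chr19:57315576-57316894 stood at 35.6 after Dex+E2, 13.2 after Dex, 14.2 after E2 and 57.4 in untreated cells, a ratio of 3.51 (2.34 to 5.29). These 3 are the shared regions (0.0145% of all) whose counting interval lies wholly above 2, the limit of selection. They are also the 3 highest ratios, and the interval comes from the tags that chose them. It leaves out any spread between libraries, so nothing is read from this.

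Next came chr14:73924100-73925409, with 23.8 after Dex+E2, 9.80 after Dex, 9.20 after E2 and 37.7 in untreated cells and a ratio of 3.22 (1.97 to 5.27). The low single-hormone libraries are shared by chr9:105599001-105599753, with 12.5 after Dex+E2, 5.14 after Dex, 5.80 after E2 and 23.5 in untreated cells (ratio 3.17, 1.65 to 6.09, and 5.39 by average density). At chr10:20671726-20672755 the values were 16.6 after Dex+E2, 8.57 after Dex, 5.60 after E2 and 28.1 in untreated cells (ratio 3.12, 1.75 to 5.57, and 1.78 by average density). These 6 regions are the ones with a ratio of at least 3. In all 6, as deposited, untreated was highest, Dex+E2 second and both single hormones lower. The library medians over all shared regions have this order too: 30.1 in untreated cells, 15.4 after Dex+E2, 14.7 after Dex and 10.2 after E2. Untreated was highest as deposited in 90.1% of all shared regions, so the order is not particular to the 6.

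Of the remaining regions in the leading 10, chr7:119758284-119759457 had 19.1 after Dex+E2, 10.04 after Dex, 5.60 after E2 and 26.3 in untreated cells (ratio 2.87). At chr7:91669632-91670424 the densities were 14.5 after Dex+E2, 5.88 after Dex, 6.20 after E2 and 22.2 in untreated cells (ratio 2.85). The region chr13:110612257-110613605 was weaker, at 10.7 after Dex+E2, 6.37 after Dex, 4.20 after E2 and 22.4 in untreated cells (ratio 2.89, and 1.60 by average density). In the scaled densities Dex+E2 exceeded untreated at both chromosome 7 regions (1.42-fold and 1.28-fold) and not at the chromosome 13 region (0.93-fold). The remaining one of the 10, chr4:119943663-119945323, has another shape and is described with the regions of high Dex+E2 density.

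**Figure D3:**
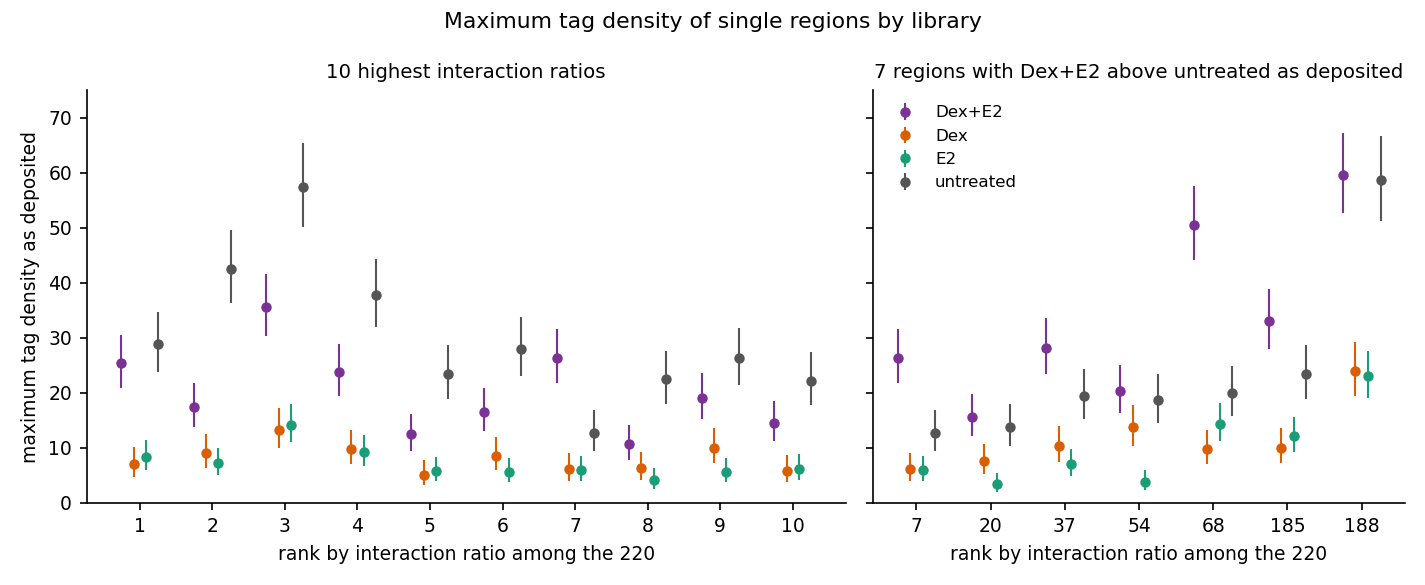
Maximum tag density as deposited (y axis) in the 4 libraries at single regions, which are ordered by their rank in interaction ratio (x axis). Points are single libraries and bars are exact Poisson 95% intervals for the summit tags. In 9 of the leading 10 the untreated density is highest and Dex+E2 comes second. The library medians over all shared regions have the same order. In the 7 regions on the right Dex+E2 is highest.

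In the 5 densest regions after Dex+E2 the deposited order was again untreated first and Dex+E2 second, as in the library medians. The highest Dex+E2 density was at chr19:45437602-45439140, with 79.2 (71.1 to 87.9) after Dex+E2, 44.3 (38.1 to 51.3) after Dex, 35.6 (30.6 to 41.2) after E2 and 133 (122 to 145) in untreated cells. As deposited, no interval of the Dex+E2 or untreated library overlapped one of a single hormone. On the scaled densities Dex was 0.68, E2 0.79 and Dex+E2 1.16 of untreated, and the ratio was 2.16 (1.69 to 2.77). At chr2:156005573-156006681 the values were 64.7 after Dex+E2, 49.0 after Dex, 28.6 after E2 and 135 in untreated cells (ratio 2.02, 1.56 to 2.61). At chr1:51534772-51536187 they were 62.4 after Dex+E2, 38.7 after Dex, 25.4 after E2 and 106 in untreated cells (ratio 2.18, 1.65 to 2.88). The Dex list has a second region of 6.12 there, chr1:51535910-51536187, and with the mean over a library's regions the ratio was 3.71. More tags narrow the interval of the ratio at these regions, but their ratios lay close to the limit.

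The region chr10:96078909-96080012 had 62.6 after Dex+E2, 38.2 after Dex, 24.6 after E2 and 93.1 in untreated cells (ratio 2.002, 1.51 to 2.66), one of the 3 regions just inside the limit. In chr16:33891440-33893414 the E2 library did not share the low values. It stood at 61.7 after Dex+E2, 28.2 after Dex, 38.6 after E2 and 114 in untreated cells, so that the scaled Dex density was 0.51 of untreated and the scaled E2 density was level with it.

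In 7 of the 220 regions the deposited Dex+E2 density exceeded the untreated one (background 7.76% of all shared regions), and in these it was the highest of the 4. They were singled out after their values were seen, and 6 of them are the regions at least 2-fold above untreated after Dex+E2 on the scaled densities. The highest Dex+E2 density relative to untreated was at chr11:100256055-100257851, where it was 50.6 (44.2 to 57.7) after Dex+E2, 9.80 (7.0 to 13.3) after Dex, 14.4 (11.3 to 18.1) after E2 and 19.9 (15.7 to 24.8) in untreated cells. The Dex+E2 interval lay above all others. On the scaled densities Dex+E2 was 4.96-fold, Dex 1.01-fold and E2 2.14-fold of untreated, and the ratio was 2.30 (1.45 to 3.67).

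The merged region on chromosome 11 holds 6 listed regions: 2 each in the Dex+E2 and untreated lists and 1 each in the Dex and E2 lists. The weaker Dex+E2 region, chr11:100257148-100257598, had 7.49, and the weaker untreated one, chr11:100257151-100257575, had 7.40. With the mean over a library's regions in place of the highest, the ratio was 0.89 and its direction turned. The single Dex region, chr11:100256439-100257851, spans both positions, and which of them holds its summit was not analysed here.

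The next 5 regions each hold a single listed region per library. On chromosome 15, chr15:78633635-78634561 had 28.1 (23.4 to 33.5) after Dex+E2, 10.3 (7.41 to 13.9) after Dex, 7.0 (4.88 to 9.73) after E2 and 19.4 (15.3 to 24.3) in untreated cells. Its scaled density was 2.83-fold of untreated after Dex+E2, 1.09-fold after Dex and 1.07-fold after E2, and its ratio was 2.44 (1.44 to 4.16). Together with the chromosome 11 region it forms the pair in which all hormone libraries exceeded untreated on the scaled densities and Dex+E2 was highest, a pattern of 7.84% of all shared regions. On the deposited scale both single-hormone libraries lay below untreated in the pair.

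At chr11:98969333-98970174 the density was 33.1 (28.0 to 39.0) after Dex+E2, 10.04 (7.21 to 13.6) after Dex, 12.2 (9.33 to 15.7) after E2 and 23.5 (18.9 to 28.8) in untreated cells, with scaled values of 2.75-fold of untreated after Dex+E2, 0.88-fold after Dex and 1.53-fold after E2. At chr11:112861744-112863055 it was 59.7 after Dex+E2, 24 after Dex, 23.0 after E2 and 58.7 in untreated cells. As deposited, the intervals of Dex+E2 (52.7 to 67.3) and untreated (51.3 to 66.8) almost coincide there, while the scaled Dex+E2 density was 1.98-fold of untreated. In both of these the Dex library was below untreated on the scaled densities and the E2 library above.

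The reverse split was seen at chr6:81035284-81036032, with 20.4 after Dex+E2, 13.7 after Dex, 3.8 after E2 and 18.6 in untreated cells. There Dex was 1.51-fold and E2 0.60-fold of untreated on the scaled densities. At chrX:8779636-8780738 the densities were 15.7 after Dex+E2, 7.59 after Dex, 3.40 after E2 and 13.8 in untreated cells, and the E2 value rests on 17 tags. In both, E2 was the lowest library. As deposited, the Dex+E2 and untreated intervals overlap in both. They are 16.4 to 25.1 against 14.6 to 23.4 on chromosome 6, and 12.2 to 19.8 against 10.3 to 18 on chromosome X. On the scaled densities Dex+E2 was 2.14-fold of untreated on chromosome 6 and 2.22-fold on chromosome X.

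The last of the 7, chr4:119943663-119945323, joins 5 listed regions. Its densities were 26.3 after Dex+E2, 6.12 after Dex, 6.0 after E2 and 12.8 in untreated cells, a ratio of 2.95 (1.58 to 5.51). The 26.3 of Dex+E2 belongs to chr4:119943663-119944553 and the 6.0 of E2 to chr4:119943821-119944310. The Dex and untreated values belong to chr4:119944720-119945154 and chr4:119944487-119945323, where the Dex+E2 list has a second region of 8.17 at chr4:119944638-119945255. The ratio at this merged region therefore compares 4 listed regions with no base in common to all, and it was 1.9 by average density and 1.91 by the mean over a library's regions. Among the 220, the densest listed regions of the 4 libraries shared at least 1 base in 217, against 97.5% of all shared regions, and the other 2 without a common base were chr11:75468220-75469744 and chr8:74018719-74020927.

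A single hormone gave the highest scaled density in 3 of the 220 regions. The E2 library led at chr9:35143193-35144158, with 21.3 after Dex+E2, 5.39 after Dex, 21.8 after E2 and 42.6 in untreated cells, and at chr9:35173140-35174177, with 27.7 after Dex+E2, 9.80 after Dex, 19.4 after E2 and 52.5 in untreated cells. These are 29.0 kb apart, and in both the Dex library stands out as low, at 0.26 and 0.38 of untreated on the scaled densities, while Dex+E2 was at 0.98 and 1.03 of untreated. Their ratios were 2.50 (1.48 to 4.21) and 2.47 (1.61 to 3.8). The Dex library led at chr9:56707737-56709302, with 18.8 after Dex+E2, 18.1 after Dex, 5.2 after E2 and 33.2 in untreated cells, where the E2 library was the low one (0.46 of untreated).

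Also named for a high ratio among the regions with untreated highest on the scaled densities was chr10:110600774-110602091, with 27.9 after Dex+E2, 15.2 after Dex, 13.4 after E2 and 63.3 in untreated cells (ratio 2.80, 1.86 to 4.21). At 2 regions Dex+E2 was low as well. At chr17:72371356-72372189 the densities were 10.2 after Dex+E2, 9.31 after Dex, 7.80 after E2 and 44.1 in untreated cells, and at chr10:67069946-67071313 they were 7.71 after Dex+E2, 7.59 after Dex, 4.80 after E2 and 30.4 in untreated cells. All 3 hormone libraries were low at both, with Dex+E2 at 0.45 and 0.50 of untreated on the scaled densities. They are the 2 selected regions at least 2-fold below untreated after Dex+E2 (background 1.58%). The ratio sets Dex+E2 against the product of the single-hormone drops, so a shared drop can pass the limit.

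No gap separated the selected regions from the next ones, with 82 regions between 2 and 2.1 and 108 between 1.9 and 2. Just inside were chr6:97819450-97820651 (ratio 2.001), chr10:96078909-96080012 (2.002) and chr17:72371356-72372189 (2.003). Just outside were chr1:135975361-135976324 (1.998), chr4:82092832-82093794 (1.997) and chr7:125971260-125972115 (1.996). At the first region inside, the densities were 15.4 after Dex+E2, 14.9 after Dex, 6.80 after E2 and 40.8 in untreated cells. At the first outside they were 16.8 after Dex+E2, 13.2 after Dex, 6.80 after E2 and 33.2 in untreated cells, and these sets of values are alike in order and size.

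**Figure D4:**
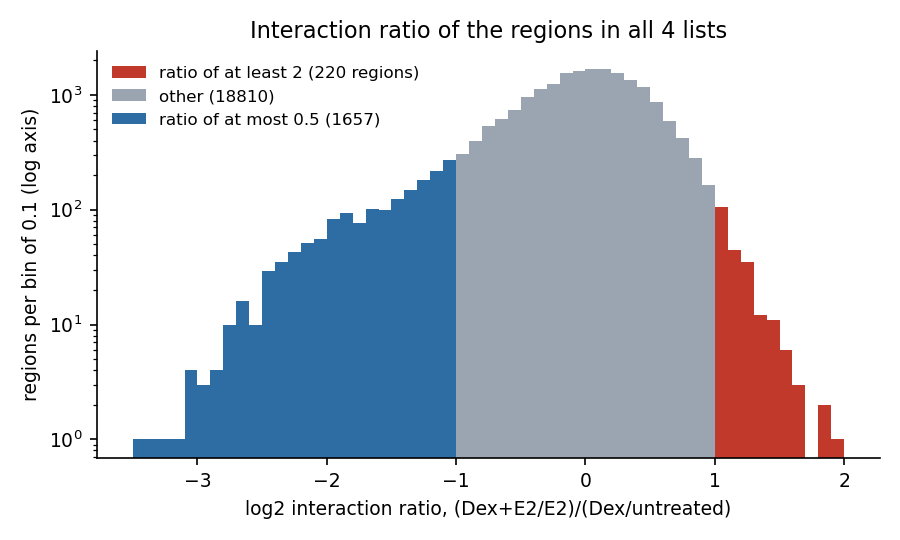
Distribution of the log2 interaction ratio over the 20687 shared regions in bins of 0.1, with the number of regions on a log axis. The 220 regions at or above a ratio of 2 form a short tail on the right that ends at 3.96. The 1657 at or below 0.5 form a longer tail on the left.

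A ratio of at most 0.5, the mirrored limit, was met by 1657 shared regions (8.01%), against 220 (1.06%) at 2 or more. Regions missing from any list were not counted, and the lists differ in length. How this filter affects either count was not tested. The lowest ratio was 0.09 and the highest 3.96. The log2 ratio over all shared regions had a median of -0.02 and quartiles of -0.40 and 0.29. Counting error alone gave the log2 ratio a standard error with a median of 0.38 in the 220 and 0.36 over all shared regions. The counting interval of the ratio lay above 1 in 219 of the 220 and in 9.09% of all shared regions, and below 1 in 11.7% of all, where counting error with no interaction would give 2.5% on each side. Selection by the ratio all but sets the 219. The 2.5% leaves out any spread between libraries, which 1 library per condition cannot show, so the excess over it is not read as an interaction. At chr13:24863331-24863967, where the E2 summit held 14 tags, the interval included 1 (0.99 to 5.63). The interval included 2 in 217 of the 220, which cannot be placed firmly on either side of the limit at this depth, and in 168 it also included 1.5.

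The summits of the selected regions held a median of 78 tags after Dex+E2, 44 after Dex, 41 after E2 and 136 in untreated cells. Tag numbers were read from the steps of the deposited densities, and the intervals treat tags as independent molecules. Over all shared regions the medians were 68 after Dex+E2, 60 after Dex, 51 after E2 and 118 in untreated cells. With the geometric mean of the 4 scaled densities as the level of a region, the selected regions made up 0.773% of the lowest quartile of shared regions, 1.60% of the second, 1.32% of the third and 0.561% of the highest. The median counting error of the log2 ratio was 0.48, 0.39, 0.32 and 0.23 in these quartiles, and its part in the selection was not tested. The mirrored group behaved otherwise, with 22.5%, 5.63%, 2.19% and 1.72% of the quartiles.

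**Figure D5:**
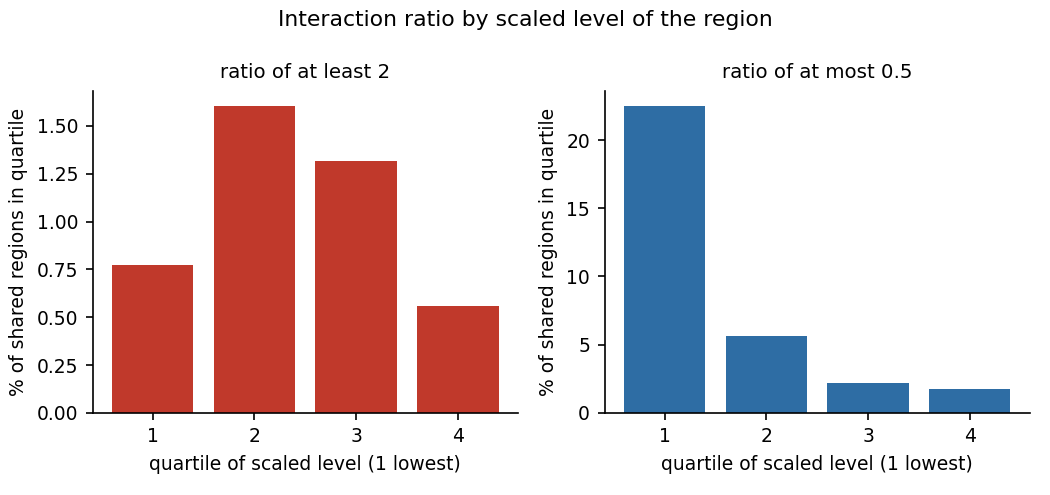
Percentage of shared regions with a ratio of at least 2 (left) or at most 0.5 (right) in each quartile of the scaled level, which is the geometric mean over the 4 libraries. The axes differ in range. The left share peaks in the second quartile at 1.60% and the right one in the lowest at 22.5%.

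In the mirrored group the order of the libraries is turned round. Of its 1657 regions, 98.2% had both single hormones above untreated on the scaled densities, and untreated was lowest in 1450. Background-type regions, in which no hormone library fell below 0.8 of the untreated density as deposited, numbered 781 in the mirrored group and 876 among all shared regions. There were 0 of them among the 220, against 4.23% of all shared regions, and nothing is read from this, since the rule used these densities. At least 2-fold higher by each Dex comparison, with and without E2, were 285 shared regions (1.38%), and 0 of the 220 were among them. Of the 206 shared regions (0.996%) at least 2-fold higher by each E2 comparison, with and without Dex, 1 was selected, chr11:100256055-100257851. The ratio divides by the single-hormone change, so the rule disfavours such regions, and nothing is read from these counts either.

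The average density per region, a further measure from the same tags, followed the maximum in most regions. It gave a ratio above 1 in 219 of the 220 (background 49.1%), of at least 1.5 in 201 (background 12.9%) and of at least 2 in 138 (background 2.57%). The exception was chr18:67125796-67128000, at 0.98 by the average and 2.24 by the maximum. Both measures come from the libraries that chose the regions and are no independent check.

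Width and the number of listed regions were not used by the rule. The merged width had a median of 1028 bp and quartiles of 856 and 1317, against 1009 bp (798 and 1353) for all shared regions. In 195 of the 220 each library contributed a single listed region (88.6%), against 85.3% of all shared regions. The listed length had a median of 756 bp after Dex+E2, 681 after Dex, 582 after E2 and 1017 in untreated cells, where all shared regions had 746, 789, 634 and 959. Length as called depends on density, so these lengths are not independent of the selection.

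The regions were spread over chromosomes 1 to 19 and X, from 3 on chromosome 12 to 19 each on chromosomes 4 and 11. As a share of the shared regions of a chromosome, the lowest was chromosome 12 (0.324%, 0.110 to 0.948) and the highest chromosome 18 (2.26%, 1.33 to 3.84), with Wilson intervals for counting alone and no adjustment for the number of chromosomes. The median gap between neighbouring selected regions was 5681 kb, and 5 of the 200 neighbouring pairs lay within 100 kb. The closest pair was chr4:132065341-132066975 and chr4:132089032-132090091, 22.1 kb apart, with ratios of 2.06 and 2.05. The next was the pair on chromosome 9 in which E2 was highest.

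The nearest other shared region lay within 10 kb of 81 of the 220 regions (36.8%), against 41.5% of all shared regions, and 0 of these 81 neighbours were themselves selected, against 0.920% of the neighbours of all shared regions. Neighbours of selected regions had a median log2 ratio of 0.09 (quartiles -0.14 and 0.43), against -0.04 (-0.42 and 0.27) for neighbours of all shared regions. The ratio was above 1 in 47 of the 81 (58.0%), against 46.6% of neighbours in general. The quartile ranges overlap, and the difference was not tested.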

How the data were processed

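DNase-seq was measured in 4 libraries of 7438 cells (Dex+E2, Dex, E2 and untreated, grouped by the treatment in the labels). Per the submitters' processing notes the build is mm9 and CASAVA 1.8 was used. No source used here gives the aligner or the region caller. Each library has its own list. Per the file headers, the deposited maximum and average densities are signal values, scaled per library to a total that is not stated. The deposited Z score and p-value of each region refer to its own library and entered no comparison.

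From these, regions were merged, scaled densities and interaction ratios computed, and tags read as density over the step between values (0.227 after Dex+E2, 0.245 after Dex, 0.200 after E2, 0.255 untreated). The 4 lists held 50061, 51251, 35496 and 65879 regions in that order. Intervals are at the 95% level and cover counting error only. Regions and lists were chosen with earlier results of these data known. The text names the 10 highest ratios, the 5 densest after Dex+E2, 3 per highest library, 3 on each side of the limit and those with all hormones above untreated. Other regions were named after their values were seen. With 1 library per condition there was no test. The functions were tested on simulated data. Densities were handled in pandas 2.3.3 with NumPy 2.4.6, intervals came from SciPy 1.17.1, and figures from Matplotlib 3.10.9 under Python 3.11.15. Equal highest scaled densities were counted for the library that comes earlier in the order Dex+E2, Dex, E2, untreated.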

Additional observations from a re-analysis of the deposited data

Results flagged for a closer look

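In 198 of the 220 regions, against 21.7% of all shared regions, the effect of Dex pointed in opposite directions without and with E2: Dex was below untreated, and Dex+E2 was above E2, on the scaled densities. The difference was not tested, and the ratio that chose the regions is made of these same comparisons.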

How the results depend on the processing

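No paired analysis was possible because each condition has 1 library. The count of 220 regions (122 with Dex+E2 highest, 201 with both single hormones below untreated) depended most on the scaling and the limit. On deposited densities it was 17396 (608 and 16981), at a limit of 1.5 it was 1803 (906 and 1471), and at a limit of 4 it was 0 (0 and 0), since the highest ratio was 3.96. Average density gave 532 (277 and 454), with 138 of the 220 among them, and the mean over a library's regions gave 345 (187 and 314), with 192 of the 220. Upper quartile scaling gave 115 (70 and 101), all among the 220, and a coverage of at least 50% in every library gave 137 (82 and 124). By a choice made after seeing the data, both measures at the limit gave 138 (81 and 125). Joining within 150 bp, medians without background-type regions, 20 tags per library, the counting interval, a common base and chromosome X moved the counts by less than 1.5-fold. Except on the deposited scale and at the limits, 85.3% to 92.0% of the regions called had both single hormones below untreated. The share over all shared regions was 32.5% in the main setting. Every setting calls regions by a ratio that contains both single-hormone densities, so nothing is read from these shares. On the deposited scale the ratios of the 26 regions named by rule were 6.18 to 12.3. In the settings of scaling, measure and joining, 1 of the 26 reversed: chr11:100256055-100257851, at 0.89 by the mean over a library's regions. By that mean chr1:51534772-51536187 was at 3.71 and chr4:119943663-119945323 at 1.91. In each of these regions the mean takes in weaker listed regions that only some of the libraries have. They stood at 7.49 (Dex+E2) and 7.40 (untreated) in chr11:100256055-100257851. In chr1:51534772-51536187 the value was 6.12 (Dex), and in chr4:119943663-119945323 it was 8.17 (Dex+E2). By average density chr9:105599001-105599753 was at 5.39, chr4:119943663-119945323 at 1.9, chr10:20671726-20672755 at 1.78 and chr13:110612257-110613605 at 1.60. The cause of the shifts by average density was not tested. Depth limits the single regions, since 217 of the 220 counting intervals include 2.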
